A study of Mus musculus with 48 samples.

Results

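REV-ERB alpha (Nr1d1), REV-ERB beta (Nr1d2), ROR alpha (Rora) and ROR beta (Rorb) were followed in the pars tuberalis of mice, a sheet of pituitary cells with dense melatonin receptors that wraps the pituitary stalk. These 4 genes were taken by symbol from 18194 genes measured on 48 expression arrays, and each was read from the brightest, by mean, of the probe sets that carry its symbol alone. They have 15 such probe sets, 1 for Nr1d1, 2 for Nr1d2, 9 for Rora and 3 for Rorb, and the 11 not used served as a check. Each array measured a pool of pars tuberalis punches from 25 mice.

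REV-ERB and ROR proteins are nuclear receptors that bind the same DNA element, the ROR element, which is an AGGTCA half-site with an A/T-rich flank. RORs activate from it, whereas REV-ERBs, whose ligand is haem, repress from it by recruiting the NCoR corepressor and the histone deacetylase HDAC3. Arntl, which encodes the clock activator BMAL1, is the best known target of both, and BMAL1 with CLOCK in turn activates the REV-ERB genes through E-boxes, which closes a loop of the circadian clock.

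All mice were CBA/N males kept for 3 weeks on short days of 8 h of light and 16 h of darkness at 400 lux. On long days they then had 16 h of light for 2 weeks and were 8 weeks old. In the advance group a first long day was given by turning lights on 8 h early, from ZT16 of the short-day cycle, and in the delay group by keeping lights on until ZT16, both at 6 weeks of age. Short-day mice stayed on 8 h of light and were 8 weeks old. Each condition had 12 arrays, 2 at each of ZT0, 4, 8, 12, 16 and 20. ZT is the number of hours since lights-on, that of the short-day cycle in advance and delay. ZT0 fell 4 h earlier by the clock under long days than under short days, so 4 h of any shift of a long-day peak comes from how ZT is counted. Comparisons of either first day with long or short days also compare ages and sets of mice. Nothing beyond the labels says that the 2 arrays of a group came from separate mice kept apart, and the spread between them may be partly technical.

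Values are log2 signals, and levels of different genes are not compared, since each probe set has its own brightness. The arrays were even, with medians between 6.975 and 7.026 and no identical pair. Genes taken as markers of the pars tuberalis were the thyrotropin subunits Tshb and Cga, the melatonin receptor Mtnr1a, the homeobox gene Pitx1 and the granule protein Chga. Their mean log2 signals were 12.288, 13.815, 8.417, 9.413 and 13.854. Whether other cells of the punches add to these signals was not tested. Of the pars distalis hormones, Pomc stood at 12.469, Fshb at 9.151, Lhb at 8.047, Prl at 7.41 and Gh at 7.119. In these bulk punches fewer cells of a type and less RNA per cell cannot be told apart. Some arrays stood apart in clock phase. The clock phase of each array, taken from 13 other clock genes matched to their short-day course, ran a median of 7.9 h behind the labelled ZT under long days (10 arrays between -9.0 and -7.0 h), but the second long-day arrays of ZT16 and ZT20 lay at -3.3 and -11.4 h. Their phases, 12.7 h for ZT16 and 8.6 h for ZT20, each lay nearer to the first array of the other time (12.1 h at ZT20 and 8.1 h at ZT16) than to that of their own. Whether these 2 labels were exchanged was not tested. Both arrays were kept as labelled. Long-day peaks, amplitudes and variation over the day of the REV-ERB genes are also given without them. The shifts from short days, the gap between the REV-ERB peaks and the correlations use all arrays. In delay the phase ran 3.6 h behind its label (-4.6 to -2.3 h). It did so also on the 6 arrays labelled ZT0, ZT4 and ZT8 (median -3.9 h), which by their ZT precede the extra light. The delay labels give a time and no day. In advance the phase differed by -0.8 h (-1.9 to 0.6 h) and under short days by 0.3 h (-1.2 to 1.3 h).

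The promoters show what each REV-ERB gene carries near its start and how the ROR element looks in Arntl. The sequences are RefSeq's on GRCm38.p6, 300 bases each around the start of transcription, 5′ to 3′ on the gene's strand, with the matched motif in capitals. The windows lie at chr11:98775328-98775627 (minus strand, Nr1d1), chr14:18239057-18239356 (minus strand, Nr1d2) and chr7:113207261-113207560 (plus strand, the second of the 2 Arntl promoters).
Nr1d1: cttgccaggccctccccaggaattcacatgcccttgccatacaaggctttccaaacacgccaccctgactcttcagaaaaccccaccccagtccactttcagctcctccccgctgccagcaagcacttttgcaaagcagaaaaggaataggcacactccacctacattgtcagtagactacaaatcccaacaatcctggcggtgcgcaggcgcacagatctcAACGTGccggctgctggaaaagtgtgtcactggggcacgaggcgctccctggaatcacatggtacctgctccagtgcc
Nr1d2: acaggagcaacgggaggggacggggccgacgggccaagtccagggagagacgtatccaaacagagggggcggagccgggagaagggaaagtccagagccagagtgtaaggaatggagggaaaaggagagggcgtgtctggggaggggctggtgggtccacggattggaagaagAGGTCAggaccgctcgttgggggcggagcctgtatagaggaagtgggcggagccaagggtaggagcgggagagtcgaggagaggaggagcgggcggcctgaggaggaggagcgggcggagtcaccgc
Arntl: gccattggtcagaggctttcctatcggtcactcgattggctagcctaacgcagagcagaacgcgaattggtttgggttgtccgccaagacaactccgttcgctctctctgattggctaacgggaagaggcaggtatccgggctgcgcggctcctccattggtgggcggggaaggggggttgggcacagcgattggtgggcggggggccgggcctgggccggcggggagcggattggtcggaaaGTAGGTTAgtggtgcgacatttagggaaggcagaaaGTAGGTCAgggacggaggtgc

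Capitals in Nr1d1 mark an E-prime box, CACGTT on the opposite strand, at bases -28 to -23 from the start. Capitals in Nr1d2 mark the half-site AGGTCA at -77 to -72. Capitals in Arntl mark 2 ROR elements of the form GTAGGTNA, GTAGGTTA at -7 to 1 and GTAGGTCA at 30 to 37, and the second holds the half-site within it. Both strands were searched. Over 32851 promoters of this length, 4.68% held the E-prime box, 7.15% the E-box CACGTG, 16.26% the half-site, 2.14% the ROR element, 1.06% a D-box (TTATGTAA or TTACGTAA) and 1.79% the cAMP element TGACGTCA. The window of Rora and the first window of Rorb held none of these letters, and the second Rorb window held an E-prime box at -234 to -229. The whole genes span chr11:98767932-98775377 (Nr1d1), chr14:18204056-18239106 (Nr1d2), chr9:68653404-69388246 (Rora) and chr19:18930609-19111196 (Rorb).

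Both REV-ERB genes varied over the day in every lighting condition. The 2 ROR genes did not, apart from Rorb in advance. Variation was tested with limma as an F test over 6 time points, with p-values adjusted by Benjamini-Hochberg over all 18194 genes and a threshold of 0.05. At that threshold 1.63% of all genes varied under long days, 2.58% in advance, 1.52% in delay and 8.91% under short days.

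**Figure D1:**
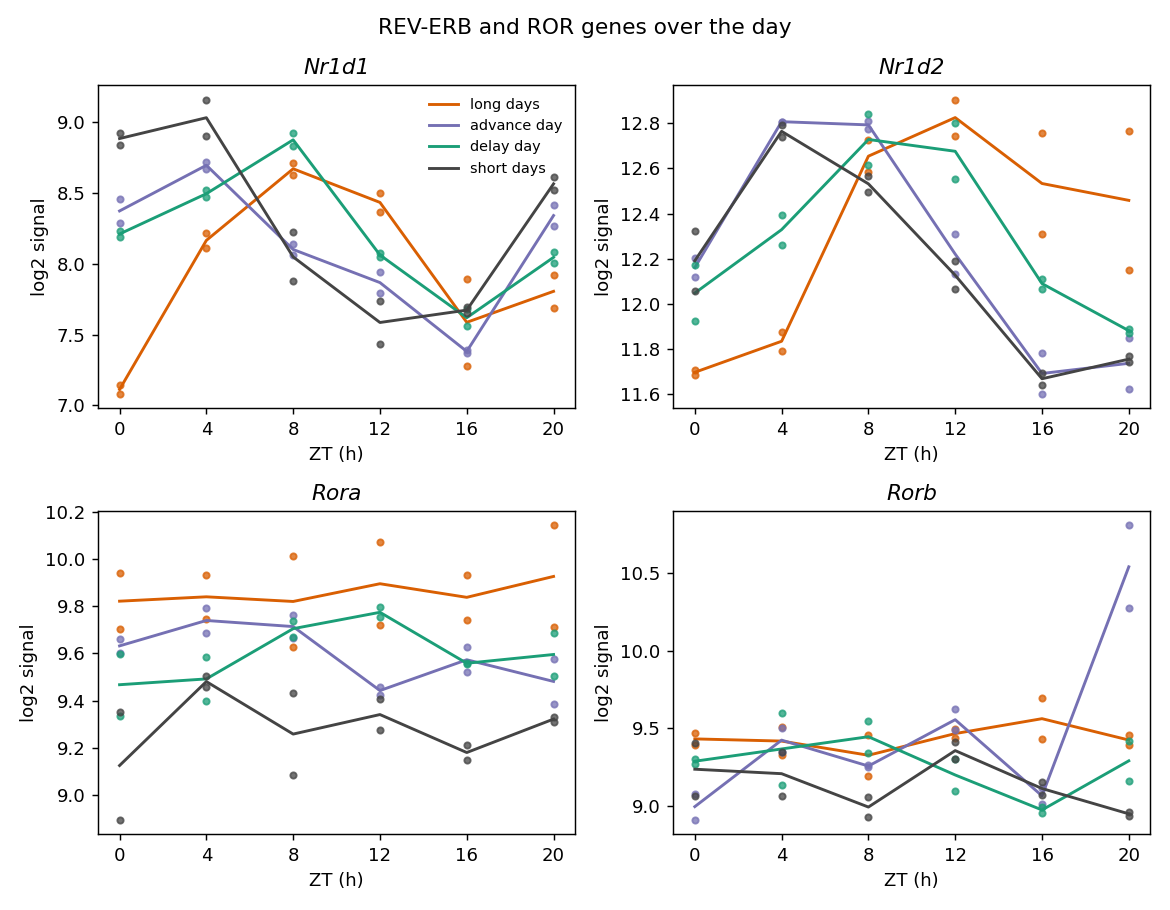
Log2 signal (vertical axis) against ZT in hours for Nr1d1, Nr1d2, Rora and Rorb, with lines through the means of 2 arrays and points for the arrays, in long days, advance, delay and short days. Nr1d1 and Nr1d2 have 1 crest a day, later in long days and delay than in short days, while Rora runs level with long days on top and Rorb stands out at advance ZT20 (10.27 and 10.81).

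Nr1d1 had its highest mean at ZT8 and its lowest at ZT0 under long days. At ZT0, 4, 8, 12, 16 and 20 the long-day pairs were 7.08 and 7.14, 8.22 and 8.11, 8.71 and 8.63, 8.50 and 8.37, 7.89 and 7.28, then 7.69 and 7.92. The ZT16 pair is the widest and contains an array whose other clock genes stood apart. In advance the pairs were 8.46 and 8.29, 8.72 and 8.67, 8.14 and 8.06, 7.94 and 7.80, 7.37 and 7.39, then 8.26 and 8.42. In delay they were 8.23 and 8.19, 8.52 and 8.47, 8.83 and 8.92, 8.05 and 8.08, 7.68 and 7.56, then 8.08 and 8.01. Advance was highest at ZT4 and delay at ZT8, and both were lowest at ZT16. Under short days the pairs were 8.93 and 8.84, 9.16 and 8.91, 8.22 and 7.88, 7.74 and 7.43, 7.70 and 7.65, then 8.61 and 8.52, highest at ZT4 and lowest at ZT12. The range of the 6 means was 2.95-fold under long days, 2.49-fold in advance, 2.39-fold in delay and 2.73-fold under short days. In limma the adjusted p of this variation was 2.75e-09 under long days, 1.63e-07 in advance, 3.08e-06 in delay and 5.79e-10 under short days. By p, Nr1d1 ranked 5, 35, 9 and 3 among 18194 genes in those conditions.

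Nr1d2 also varied in each condition, with a later crest. Under long days its pairs at ZT0 to ZT20 were 11.69 and 11.71, 11.79 and 11.88, 12.58 and 12.73, 12.75 and 12.90, 12.76 and 12.31, then 12.15 and 12.76. Here too the ZT16 and ZT20 pairs, each with an array set apart by its clock phase, are the widest. In advance the pairs were 12.20 and 12.12, 12.81 and 12.81, 12.81 and 12.77, 12.13 and 12.31, 11.60 and 11.78, then 11.63 and 11.85. In delay they were 11.93 and 12.17, 12.40 and 12.26, 12.62 and 12.84, 12.80 and 12.55, 12.07 and 12.11, then 11.89 and 11.87. The crest lay at ZT4 and ZT8 in advance and at ZT8 and ZT12 in delay. Under short days the pairs were 12.32 and 12.06, 12.74 and 12.79, 12.50 and 12.57, 12.07 and 12.19, 11.70 and 11.64, then 11.74 and 11.77, with the crest at ZT4. The range of means was 2.18-fold, 2.16-fold and 1.80-fold in long days, advance and delay, and 2.13-fold under short days. The adjusted p was 5.18e-07, 7.02e-08 and 0.000183 in those 3 conditions and 2.33e-06 under short days. By p, Nr1d2 ranked 18, 29, 32 and 25 in long days, advance, delay and short days. The other Nr1d2 probe set was dim, with a mean of 5.87, and correlated at r = 0.73 over the 24 group means with the one used. It passed in no condition (adjusted p from 0.342 to 1.00).

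Cosines with a period of 24 h, fitted to the 12 arrays of a condition, put numbers on the order. Nr1d1 peaked at ZT 9.30 ± 0.84 under long days, 2.40 ± 0.68 in advance, 5.56 ± 0.65 in delay and 1.21 ± 0.35 under short days (SE of the fit, n = 12 each). When the replicate numbers were fitted apart, 6 arrays each, its peaks were 9.77 and 8.74, 2.68 and 2.09, 5.36 and 5.73, and 1.58 and 0.84 h. Nr1d2 peaked at ZT 13.03 ± 0.77, 6.06 ± 0.23, 8.98 ± 0.45 and 5.48 ± 0.27 in the same order. It thus followed Nr1d1 by 3.73 ± 1.13 h under long days, 3.66 ± 0.72 h in advance, 3.42 ± 0.79 h in delay and 4.27 ± 0.45 h under short days. The amplitude of Nr1d1, from mean to crest, was 0.64 ± 0.14, 0.53 ± 0.09, 0.50 ± 0.08 and 0.78 ± 0.07 log2 units in that order. For Nr1d2 it was 0.54 ± 0.11, 0.63 ± 0.04, 0.44 ± 0.05 and 0.54 ± 0.04. Without the 2 long-day arrays set apart by their clock phase, a setting chosen after seeing them, the long-day peak lay at ZT 9.65 ± 0.57 for Nr1d1 and 12.66 ± 0.35 for Nr1d2 (n = 10 arrays), with amplitudes of 0.72 ± 0.10 and 0.62 ± 0.05. Their variation over the day also passed without them (adjusted p = 1.02e-10 for Nr1d1 and 9.57e-10 for Nr1d2 in limma).

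**Figure D2:**
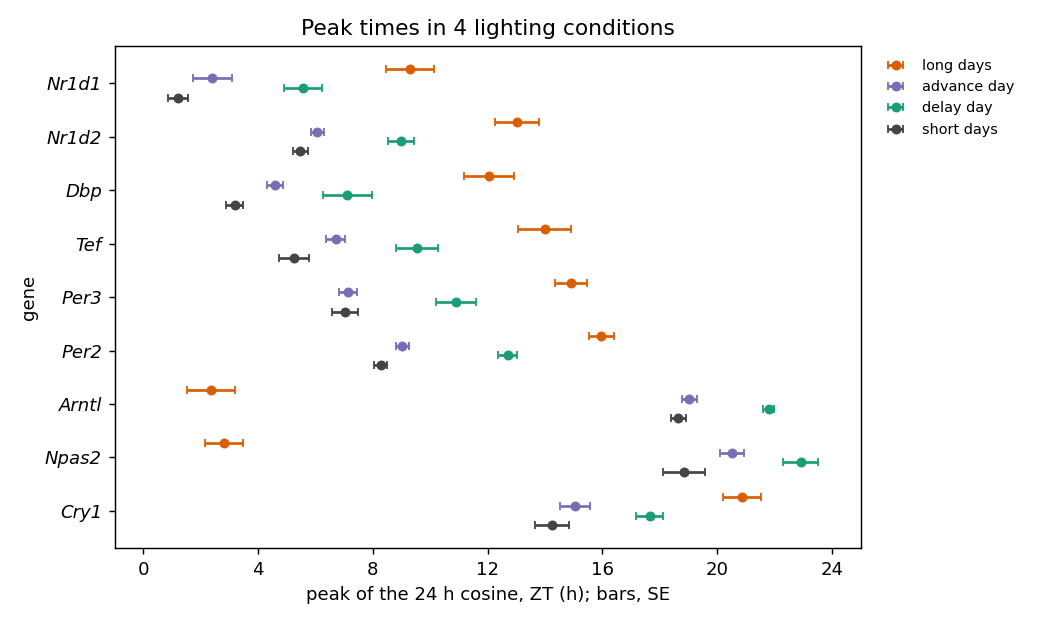
Peak time of the fitted 24 h cosine (horizontal axis, ZT in hours, with its SE) for both REV-ERB genes and 7 other clock genes in long days, advance, delay and short days. Nr1d1 peaks at 9.30, 2.40, 5.56 and 1.21 h and Nr1d2 at 13.03, 6.06, 8.98 and 5.48 h, and the other genes keep the same order of conditions around the 24 h circle.

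Set against short days, the long-day peak came 8.10 ± 0.91 h later by ZT for Nr1d1 and 7.55 ± 0.81 h later for Nr1d2, which is 4.10 h and 3.55 h by the clock on the wall. The delay peak came 4.35 ± 0.74 h later for Nr1d1 and 3.51 ± 0.52 h later for Nr1d2. In advance the shifts were 1.19 ± 0.76 h and 0.59 ± 0.36 h. Other genes of the RORE target and E-box and D-box lists below that varied in both conditions moved by like amounts. Their median was 7.97 h under long days (11 genes, 6.63 to 8.87 h), 0.56 h in advance (14 genes, -0.63 to 1.68 h) and 3.93 h in delay (11 genes, 3.14 to 4.93 h). They are clock genes apart from Lpl, a lipase, which counts under long days and in advance and gives the lowest advance shift. All 6 REV-ERB shifts lay within those ranges. The delay shift was already present on arrays that precede the extra light by their ZT, as the clock phases above show, and whether it comes from the light was not tested.

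The daily course, tested as an F over the 5 interaction terms, differed from short days for both REV-ERB genes under long days and in delay. Under long days 4.3% of all genes passed, and the adjusted p in limma was 2.38e-11 for Nr1d1 and 2.70e-08 for Nr1d2. With arrays matched by wall clock, 0.467% of genes passed, and both still did (6.28e-07 for Nr1d1 and 0.00487 for Nr1d2). In delay 1.84% passed, with 3.82e-06 for Nr1d1 and 0.0167 for Nr1d2. The Nr1d2 call in delay was lost without the second delay array of ZT4 (0.0780) or the first of ZT12 (0.0531). In advance 0.308% passed, and neither REV-ERB gene did (0.263 for Nr1d1 and 0.884 for Nr1d2). Rora passed in none of these (0.856 under long days, 0.741 in advance, 0.569 in delay), but 2 of its other 8 probe sets differed in course under long days (0.0296, in the second brightest, and 0.0392). Rorb passed in advance alone, at 6.68e-06, against 0.715 under long days and 0.205 in delay.

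Of the targets and partners of the receptors, those of the clock varied with them. Of 10 listed RORE targets 8 were measured, and 5 varied over the day under long days, 6 in advance, 4 in delay and 6 under short days. Of 11 E-box and D-box genes, a list that shares Arntl and Clock with the first, 7, 10, 8 and 10 varied in the same order. Over all genes 1.63%, 2.58%, 1.52% and 8.91% did, also in that order. Arntl, the shared target, ran against Nr1d2. Its long-day pairs were 9.61 and 9.74, 9.77 and 9.71, 8.96 and 8.85, 8.64 and 8.21, 8.38 and 9.06, then 8.93 and 8.26 from ZT0 to ZT20, high where Nr1d2 was low. Under short days it had 9.21 and 9.29, 8.46 and 8.28, 8.45 and 8.55, 8.98 and 8.86, 9.53 and 9.55, then 9.74 and 9.71, with its trough at ZT4 and ZT8. Over the 24 group means less the mean of each condition, Arntl correlated with Nr1d2 at r = -0.95 and with Nr1d1 at -0.29. The Nr1d2 value was the most negative of any gene once symbols that are clone names, such as those ending in Rik, were left out. These correlations describe 24 points that share arrays and one clock, and carry no test.

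By the same measure and with the same symbols left out, the genes most like Nr1d2 were Tef (r = 0.96), a transcription factor of the clock output, and Dgat2 (0.95), which makes triglyceride. Next came Ciart (0.94), a clock repressor, Tspan4 (0.92), and Per3 (0.91), a period gene. Those most like Nr1d1 were Tmem86a (0.92), Phykpl (0.91), Haus1, Dusp12 and Cilp (0.87 each). The most opposed to Nr1d1 was Cry1 (-0.90), a clock repressor and RORE target that peaks late. Nr1d1 and Nr1d2 correlated with each other at 0.53. Rora was most like Crebrf (0.82), Cdk14 (0.81) and Idh2 (0.81), and Rorb was most like Ankrd44 (0.85), Anp32b (0.84) and Man2a1 (0.84).

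Genes of the proteins through which the receptors act were put to the same test. Of all genes, 1.63% passed it under long days, 2.58% in advance, 1.52% in delay and 8.91% under short days. Counts of 0 or 1 in lists of 5 to 9 genes cannot be told from these shares. Of 5 corepressor genes measured, 1 varied under short days (Tbl1xr1, adjusted p = 0.0305 in limma) and 0 in the other 3 conditions, also at an unadjusted p under 0.05. Of 8 coactivator genes 0 varied in any condition, and at an unadjusted p 0, 2, 2 and 0 did in long days, advance, delay and short days. Of 9 haem genes Ppox, a late enzyme of haem synthesis, varied under long days (0.0391) and Alad, an early one, under short days (0.00309), with 0 in advance and delay, also unadjusted. Of 28 other nuclear receptors 3 varied under long days, all of the Nr4a family, whose members are induced early by many stimuli (Nr4a1 7.26e-05, Nr4a2 0.0130 and Nr4a3 0.00740). In advance 2 did (Nr4a3 1.76e-05 and Rxrg, a retinoid X receptor, 0.0108), in delay 1 (Rxrg 0.0168) and under short days 2 (Nr4a3 0.000207 and Nr3c2, the mineralocorticoid receptor, 0.00481).

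The ROR genes differed between conditions in level. Rora was higher under long days than under short days on every array, with a lowest, median and highest value of 9.63, 9.84 and 10.14 against 8.90, 9.32 and 9.51. In advance the 3 values were 9.38, 9.61 and 9.79, and in delay 9.34, 9.59 and 9.80. The long-day and short-day arrays did not overlap, and 9 of 12 arrays of either first day lay above all short-day arrays. Under long days the second arrays (9.93 to 10.14) all lay above the first ones (9.63 to 9.75), so replicates differed there at all 6 time points, and both sets lay above the short-day arrays. Its variation over the day did not pass in any condition (adjusted p 1.00 under long days, 0.735 in advance, 0.740 in delay and 0.421 under short days). Of the 9 Rora probe sets 1 passed under short days (0.0448 over all probe sets) and 0 in the other conditions.

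**Figure D3:**
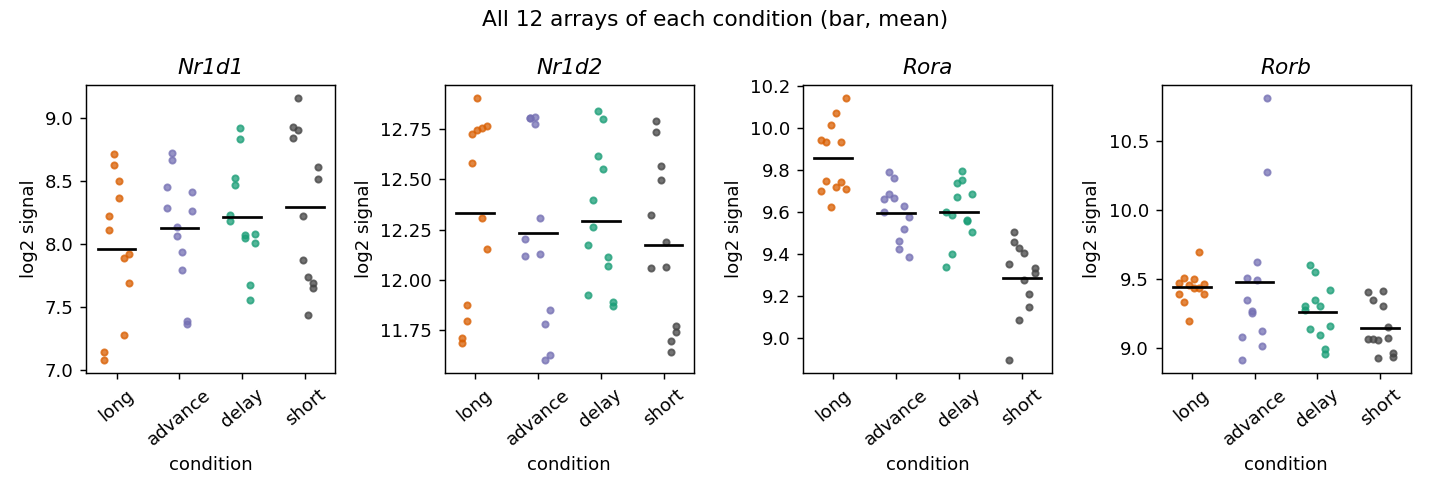
Log2 signal (vertical axis) of each gene on all 12 arrays of long days, advance, delay and short days (points, in order of ZT within a group), with the mean as a bar. Rora separates long days (9.63 to 10.14) from short days (8.90 to 9.51), and the first-day groups lie between them, while Nr1d1 and Nr1d2 spread over their daily range in every condition.

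The day mean of Rora was 9.86 ± 0.17 under long days, 9.60 ± 0.13 in advance, 9.60 ± 0.14 in delay and 9.28 ± 0.17 under short days (SD, n = 12 arrays each). It was 1.49-fold higher under long days than under short days (log2 change 0.57 ± 0.06 SE, adjusted p = 8.19e-10 in limma, higher at all 6 ZT). This contrast is crowded, since 46.7% of all genes passed in it, and Rora ranked 193 by rise among 18194 genes. In advance Rora exceeded short days by 0.31 (2.82e-05, where 51.4% of genes passed) and in delay by 0.31 (3.37e-05, 49.8% of genes). In the probe set used, advance and delay did not differ from each other by a passing amount (-0.00, 95% interval -0.12 to 0.12, adjusted p = 0.988, 24.1% of genes). Long days exceeded advance by 0.26 (0.00073, 34.6% of genes) and delay by 0.26 (0.000505, 47.5% of genes). Of the 9 Rora probe sets, all were higher with long days than with short days, and 8 of them passed (0.01 to 0.70, median 0.30). They did not keep together on the first day. In advance 4 rose and 1 fell against short days (-0.19 to 0.34), and in delay 4 rose and 3 fell (-1.15 to 0.44). The first-day rise thus holds for some Rora probe sets and not for others. Between the first days, 3 of the 9 passed as higher in advance than in delay and 0 as lower (-0.10 to 1.13). Long days passed as higher than advance in 5 and lower in 1, and as higher than delay in 6 and lower in 2.

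Rorb had a day mean of 9.44 ± 0.12 under long days, 9.47 ± 0.55 in advance, 9.26 ± 0.20 in delay and 9.14 ± 0.18 under short days (SD, n = 12 arrays each). The lowest, median and highest arrays were 9.20, 9.45 and 9.69 under long days against 8.93, 9.07 and 9.41 under short days, and 8 of 12 long-day arrays lay above all short-day ones. It was 1.23-fold higher under long days than under short days (log2 change 0.30 ± 0.06 SE, adjusted p = 7.31e-05), and all 3 of its probe sets rose (0.30, 0.44 and 0.97). Rorb also exceeded short days in advance (0.33, 1.29e-05), but over the 5 time points other than ZT20, a setting chosen after seeing the data, the difference was 0.08 ± 0.06 (adjusted p = 0.329). Over those 5 time points one other Rorb probe set stood at -0.05 (0.764) and the remaining one was still higher in advance (0.38, 0.000105). Delay minus short days was 0.12 (0.0928), advance minus delay 0.21 (0.00745), long days minus advance -0.03 (0.686) and long days minus delay 0.18 (0.0129). The other Rorb probe sets did not keep to these values. One was lower in delay than under short days (-0.40, adjusted p = 0.00129 over all probe sets) and higher under long days than in advance (0.76, 5.83e-07), and the remaining one was higher in delay than under short days (0.19, 0.0234).

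Of the REV-ERB day means, that of Nr1d1 fell under long days, and that of Nr1d2 passed there by a small amount in a call that was lost without either of 2 single arrays. Nr1d1 averaged 7.96 ± 0.57 under long days, 8.13 ± 0.44 in advance, 8.22 ± 0.41 in delay and 8.30 ± 0.60 under short days, where the SD (n = 12 arrays) holds the daily range. It fell by 0.34 under long days (SE 0.05, adjusted p = 3.19e-06) and by 0.17 in advance (0.00758) against short days, and stood at -0.08 in delay (0.222). Long days lay below advance (-0.16, 0.0167) and below delay (-0.26, 0.000215), and advance minus delay was -0.09 (0.227). Nr1d2 averaged 12.33 ± 0.47, 12.24 ± 0.47, 12.29 ± 0.34 and 12.17 ± 0.41 in the same order. It rose by 0.16 ± 0.05 under long days against short days (adjusted p = 0.0150), a call that was lost without the first long-day array of ZT16 (0.0559) or the second of ZT20 (0.0615). None of its other 5 differences between conditions passed, advance minus short days 0.06 (0.362), delay minus short days 0.12 (0.0699), advance minus delay -0.06 (0.496), long days minus advance 0.10 (0.166) and long days minus delay 0.04 (0.548). The other, dim Nr1d2 probe set was higher than under short days in advance (0.42, adjusted p = 0.000726 over all probe sets) and in delay (0.37, 0.00317).

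Measures of RNA quality and tissue also differed between long and short days. The gap between the 3' and 5' actin control probe sets, a common sign of RNA quality, was 1.65 ± 0.12 under long days, 1.69 ± 0.09 in advance, 1.85 ± 0.13 in delay and 1.89 ± 0.12 under short days (SD, n = 12 arrays each). With that gap as a covariate, Nr1d1 and Rora kept their long-day calls and Nr1d2 (0.15, adjusted p = 0.172) and Rorb (0.18, 0.0905) lost theirs. Of the marker lists, pars tuberalis genes had 4 of 5 higher under long days than under short days, astrocyte genes 2 higher and 4 lower of 7, neuron genes 3 higher and 2 lower of 9, tanycyte genes 2 higher and 3 lower of 6, microglia genes 3 lower of 5 and ependymal genes 3 lower of 5. Pars distalis genes had 1 higher and 3 lower of 7, and oligodendrocyte, endothelial and fibroblast genes 1 higher and 1 lower each of 4, 5 and 5. Over all genes 46.7% passed in this contrast, 3200 higher and 5303 lower, and lists this short cannot be told from that share. The summed linear signal of the pars tuberalis list was 43251 to 57836 under long days against 21129 to 38521 under short days, and that of the astrocyte list 20513 to 25325 against 23736 to 36318. No list had a member below the first quartile on all arrays, and the part of these cell types in the day means was not tested.

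Among the proteins around the receptors, long days minus short days gave more falls than rises in the haem and nuclear receptor lists, as over all genes, of which 5303 fell and 3200 rose. Of 9 haem genes 4 fell and 0 rose (Alad -0.36, Alas1, which sets the rate of haem synthesis, -0.27, Hmox1, which breaks haem down, -0.38, and Urod -0.15), with a list median of -0.07 against -0.03 for all genes. Of 28 other nuclear receptors 12 fell and 2 rose, with Rxrg at -0.82, Thra, a thyroid hormone receptor, at -0.41 and Ppard, a fatty acid receptor, at -0.42, and a list median of -0.06. Of 5 corepressor genes Tbl1xr1 rose (0.34) and Gps2 fell (-0.26), both subunits of the NCoR complex. Of 8 coactivator genes Med1, a Mediator subunit, rose (0.19) and 3 fell, among them Ncoa3 (-0.42). Of 8 RORE targets 1 rose and 2 fell, Lpl, the lipoprotein lipase, by the most (-0.47). Of 11 E-box and D-box genes 5 rose and 0 fell, among them Hlf (0.70), Cry2 (0.36) and Per2 (0.30). With 46.7% of all genes passing, the shares of these lists that passed are close to that of all genes.

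The light response was measured over the first 4 h of extra light, less the change over the same hours under short days, which takes off differences of age and set of mice that stay constant over those hours. In advance Rorb rose in those hours, by 2.78-fold within advance and by 3.11-fold less the short-day change. At ZT20, after 4 h of light, it read 10.27 and 10.81 in advance, against 8.94 and 8.96 under short days in the dark. At ZT16, when lights came on, it read 9.12 and 9.01 in advance, against 9.15 and 9.07 under short days. In the probe set used, both advance arrays of ZT20 lay above every other value of the 48 arrays, the highest of which was 9.69. At ZT16 the groups overlapped.

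The response of Rorb was 1.64 ± 0.20 on the log2 scale (SE, 95% interval 1.23 to 2.05, 3.11-fold, adjusted p = 8.81e-06 in limma, n = 2 arrays per group). In this contrast 0.22% of all genes passed, 33 up and 7 down, and Rorb ranked 5 by p and 4 by rise among 18194 genes. The gene and the time were chosen with that result known, so its rank adds nothing to it. Leaving out any 1 of the 48 arrays gave responses from 1.37 to 1.91 and adjusted p from 8.05e-07 to 0.000398. Compared at ZT20 alone, with no earlier time taken off, advance exceeded short days by 1.59, and within advance ZT20 exceeded ZT16 by 1.48.

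The other Rorb probe sets gave the same direction. One read 9.90 and 10.32 at ZT20 and 8.65 and 8.27 at ZT16 in advance, against 8.50 and 8.67 at ZT20 and 8.81 and 8.95 at ZT16 under short days. Its response was 1.94 (adjusted p = 0.00432 over all probe sets). In this probe set long-day arrays reached 10.11, above the first advance array of ZT20, so that level was not particular to advance. The third read 8.89 and 9.66 at ZT20 and 8.33 and 8.50 at ZT16 in advance, against 7.82 and 7.77 at ZT20 and 8.18 and 8.00 at ZT16 under short days. Its response was 1.15 (0.0279), with its pair at advance ZT20 wide apart. Both correlated with the probe set used at r = 0.85 and 0.86 over the 24 group means.

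**Figure D4:**
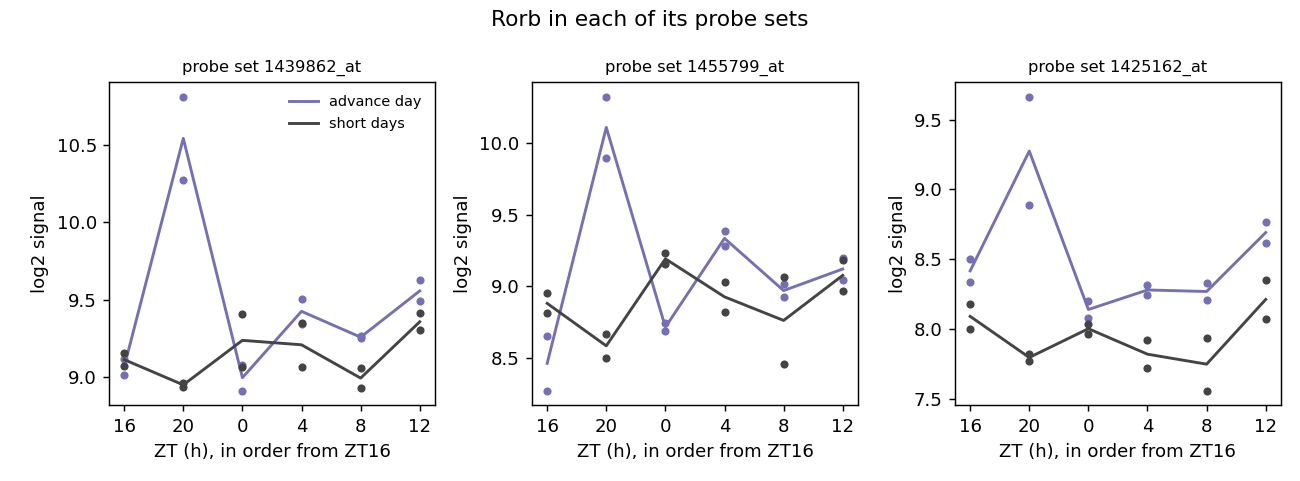
Log2 signal (vertical axis) of the 3 Rorb probe sets in advance and short days, with ZT in hours on the horizontal axis in order from ZT16, when lights came on in advance, lines through means and points for the 2 arrays. Each probe set is highest at advance ZT20 (means of 10.54, 10.11 and 9.28) and lower again at ZT0.

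The rise did not pass at later times. Measured from ZT16 and less the short-day change, Rorb stood at -0.19 ± 0.20 at ZT0 (95% interval -0.61 to 0.22, adjusted p = 0.778), 0.26 at ZT4 (0.633), 0.31 at ZT8 (1.00) and 0.25 at ZT12 (0.831). One of the other Rorb probe sets stood higher, at 0.83 at ZT4 (adjusted p = 0.459, unadjusted 0.0215), 0.63 at ZT8 (0.944) and 0.46 at ZT12 (0.780). No member passed at these times, where 0.0%, 0.0055%, 0.011% and 0.0% of all genes passed in limma, although 1695, 2059, 810 and 1218 genes had an unadjusted p under 0.05. At ZT0 the Rorb arrays read 9.08 and 8.91 in advance, against 9.41 and 9.07 under short days, so by then advance was level with or below short days. The ZT labels of advance give a time and no day, and the ZT0 to ZT12 arrays were taken to follow ZT20. Without ZT20 the variation of Rorb over the day in advance, at 1.09e-08 with it, no longer passed (0.0749), nor did its difference in course from short days (0.566). ZT20 was left out after seeing the data.

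In delay the same gene did not rise. Rorb read 9.30 and 9.09 at ZT12, after 4 h of light past dusk, and 9.34 and 9.55 at ZT8 in delay, against 9.41 and 9.30 at ZT12 and 8.93 and 9.06 at ZT8 under short days. The response was -0.61 ± 0.20 (95% interval -1.02 to -0.20, adjusted p = 0.627, unadjusted 0.0050). In delay 0.0385% of all genes passed, and 0 of the 4 members did in limma, 1 of them at an unadjusted p under 0.05. The clock phase of delay arrays was already behind that of short-day arrays at ZT8, and its part in this value was not tested. The size of the Rorb value depends on what is taken off. Compared at ZT12 alone, delay minus short days was -0.16 (adjusted p = 0.638 in limma), and within delay ZT12 minus ZT8 was -0.25 (0.765). The advance response exceeded the delay response by 2.25 ± 0.29 (95% interval 1.67 to 2.83, adjusted p = 4.28e-05), where 0.159% of all genes passed. The other probe sets gave 2.55 (0.0219) and 1.55 (0.0700).

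With the short-day change taken off, neither REV-ERB gene nor Rora passed with light at either end of the day. Nr1d1 read 8.26 and 8.42 at advance ZT20 against 8.61 and 8.52 under short days, and 7.37 and 7.39 at advance ZT16 against 7.70 and 7.65. Both groups climbed over these hours, and the response was 0.07 ± 0.19 (95% interval -0.31 to 0.45, adjusted p = 0.970). Nr1d2 gave -0.04 (-0.43 to 0.34, 0.984) and Rora -0.23 (-0.64 to 0.18, 0.876). In delay the responses were -0.35 (-0.73 to 0.03, adjusted p = 0.670) for Nr1d1, 0.35 (-0.03 to 0.74, 0.670) for Nr1d2 and -0.01 (-0.42 to 0.40, 0.992) for Rora. The delay values depend on what is taken off. Compared at ZT12 alone, delay exceeded short days by 0.55 for Nr1d2 (adjusted p = 0.0146) and by 0.48 for Nr1d1 (0.0303), the opposite sign to its response. Within delay, Nr1d1 fell by 0.81 over those hours (0.00334), and its short-day means were 8.05 at ZT8 and 7.59 at ZT12. Advance minus delay responses were 0.42 (0.574) for Nr1d1, -0.39 (0.608) for Nr1d2 and -0.22 (0.818) for Rora.

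**Figure D5:**
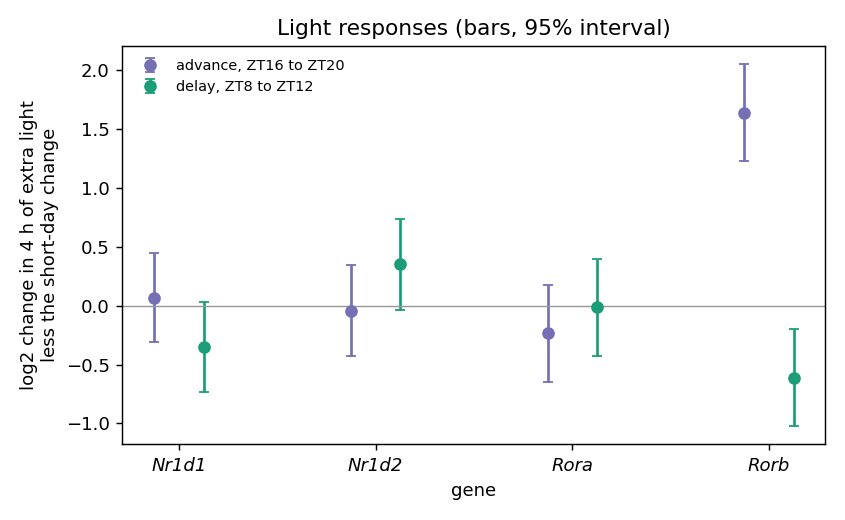
Log2 change over the first 4 h of extra light less the short-day change (vertical axis), with its 95% interval, for each gene in advance (ZT16 to ZT20) and delay (ZT8 to ZT12). Rorb in advance, at 1.64, is the one response that passed, and the intervals of the other genes include 0, while that of Rorb in delay, at -0.61, does not but failed the adjustment.

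Other nuclear receptors were put to the same contrast, in which 0.22% of all genes passed in advance and 0.0385% in delay. At an unadjusted p under 0.05 in limma, 1128 of all 18194 genes counted in advance and 1380 in delay. Counts of 0 in lists this short cannot be told from the shares that passed. Of 28 measured, 0 passed in advance in limma and 4 had an unadjusted p under 0.05, with Nr4a3 the nearest (0.84 ± 0.20, adjusted p = 0.0930). Their median was -0.06, the same as over all genes. Across all 6 lists around the receptors, 0 of 69 entries passed in advance and 4 did unadjusted, and in delay the counts were 0 and 9. Of 58 cell type markers 0 passed in advance and 2 did unadjusted, and in delay 0 and 4. The summed signal of the neuron list was 21600 and 21975 at advance ZT20 and 19655 and 22572 at ZT16, against 26752 and 26944 at ZT20 and 24571 and 26563 at ZT16 under short days. That of the fibroblast list was 17815 and 18052 at advance ZT20 and 15429 and 17129 at ZT16, against 14914 and 15000 and 11715 and 14355 under short days, and these sums were higher at ZT20 than at ZT16 in both groups. The part of either in the Rorb response was not tested.

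Arrays of the first day whose ZT precedes the extra light, advance ZT16 and delay ZT0, ZT4 and ZT8, were compared with short days. That these arrays had no extra light yet rests on their ZT, since the labels give a time and no day. Rora was higher by 0.30 ± 0.07 on these arrays (adjusted p = 0.000838), about as much as over the whole first day. Nr1d1 was lower (-0.17 ± 0.07, 0.0331), Nr1d2 stood at -0.09 (0.277) and Rorb at 0.15 (0.0744). The other Rorb probe sets gave -0.29 (0.050) and 0.29 (0.00683). In this contrast 48.8% of all genes passed. The Nr1d1 call was lost on leaving out any of 8 single arrays, and the Rora probe sets did not keep one direction (-0.76 to 0.44, 4 of 9 passing upward and 2 downward). Age, the set of mice and, in delay, the clock phase differ in this contrast and cannot be told apart.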

How the data were processed

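Messenger RNA was measured on 48 arrays in 24 groups of 2 (4 lighting conditions and 6 time points), and no array was left out. The log2 values are those the authors deposited, made with RMA in R 2.8.0 per the submitters' processing notes, and were not normalized again. Of 45101 probe sets, 34958 carry 1 gene symbol in the platform annotation, 932 several and 9211 none. All 18194 genes were fitted with group means in limma 3.58.1 in R 4.3.3 (24 residual degrees of freedom, variance trend on the mean level, two-sided tests), with p-values adjusted by the Benjamini-Hochberg method and a threshold of 0.05. The model was tested on simulated data with known changes. Intervals are 95% intervals of the model. Cosines, clock phases and correlations were computed with numpy 2.4.6 and carry no test. No filter on dim genes was used. The members, the lists and the comparisons were chosen with earlier results of these data known. The text names the members in each comparison, up to 4 genes of a list with the smallest p, and the genes with the most similar course. Equal replicate numbers were not treated as pairs. The replicate difference of one time point, set across genes against that of another, gave a median r of 0.238 (long days), 0.0698 (advance), 0.273 (delay) and 0.0328 (short days). Of 15 pairs of time points in a condition, 14 (long days), 6 (advance), 11 (delay) and 3 (short days) were over 0.1. Results with a replicate block are given below. Precision is limited by 2 arrays per group. Alternatives were the replicate block, a filter on dim genes, other variance models, other probe sets, single arrays left out, other forms of each contrast and an actin covariate.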

Additional observations from a re-analysis of the deposited data

Results flagged for a closer look

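Results listed here are those where the daily course or the light response of a member differed between conditions by a test of the difference itself, in limma with adjustment over 18194 genes. For Nr1d1 the daily course differed from short days under long days (adjusted p = 2.38e-11) and in delay (3.82e-06). For Nr1d2 it differed under long days (2.70e-08) and in delay (0.0167). For Rorb it differed in advance (6.68e-06), though not without ZT20 (0.566), and its light response in advance exceeded that in delay by 2.25 on the log2 scale. No group was large enough per time point for a test of single arrays that stand apart.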

How the results depend on the processing

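The calls of the 4 genes were compared across the alternatives, 80 results under each general one. A replicate block over all arrays, the filter on dim genes, the fit without the variance trend and the robust fit changed no call. A replicate block within each condition lost the long-day rise of Nr1d2 (0.11, adjusted p = 0.305) and changed no other call. Without the long-day arrays of ZT16 and ZT20 that stood apart, 2 members in place of 1 differed in course between advance and short days, since Nr1d1 passed (0.0414). Without ZT20, 0 did. Taken within the first day alone, 2 members responded in advance and 1 in delay, Nr1d1 by 0.96 and -0.81, hours in which it also moves under short days. Compared at the same ZT only, 2 responded in delay, Nr1d2 by 0.55 and Nr1d1 by 0.48, which turned its direction. With the actin covariate 2 of 4 day means passed. Ahead of the extra light, Nr1d2 turned to 0.33 in its other probe set, and Rora to -0.23, -0.22, -0.76 and -0.035 in 4 of its others, and Rorb to -0.29 in 1 of its other 2. With single arrays left out, 1 to 3 members differed ahead of the light, 1 to 2 in the delay course and 3 to 4 in day mean, and other member counts did not move. Counts over all genes moved more: 15 to 304 in the advance course (56), 116 to 1110 in the delay course (335), 85 to 1456 in the long-day course (782), 18 to 4186 in the advance response (40), 0 to 824 in the delay response (7), 10 to 111 in their difference (29), 89 to 2838 for variation under short days (1621), 83 to 468 under long days (296), 341 to 1325 in advance (470), 92 to 647 in delay (276), and 5006 to 8754 for the long-day mean (8503). At ZT0, ZT4, ZT8 and ZT12 of advance up to 427, 428, 280 and 507 genes passed. Where no cause is named, the cause was not tested.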
